A study of Mus musculus with 6 samples.

Results

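Ldha and Ldhb encode the A and B subunits of lactate dehydrogenase, and this account follows their transcripts in mouse embryos that developed from eggs activated without sperm. The members were every probe whose platform annotation names exactly 1 gene, that gene being Ldha or Ldhb: 3 probes, 2 of them for Ldha (numbers 779 and 3892) and 1 for Ldhb (number 10867), out of 6249 probes with 1 gene and 22132 probes in the table. They stand for 2 of the 4797 genes named by such probes. A further probe is annotated to Ldhb together with Kcnj8, stands at exactly 0 on all 6 arrays and was not used. Embryo RNA was hybridised on 6 Agilent arrays with 2 colours, 3 for eggs activated with cycloheximide, an inhibitor of protein synthesis, and 3 for eggs activated with strontium chloride, which makes the egg release calcium in repeated pulses. All eggs were treated at the second meiotic metaphase and also received cytochalasin D, so both groups share exposure to a drug that blocks actin polymerisation, and all embryos then spent 60 h in KSOM medium. The labels give no strain, no age of the egg donors and no embryo stage, and no group activated by sperm was analysed here, so these data compare 2 kinds of parthenogenetic embryo. The RNA of each array was equivalent to 25 pooled embryos, amplified in 2 rounds and labelled with Cy3. Its partner on every array, labelled with Cy5, was a commercial reference of pooled mouse RNA that went through 1 round of amplification. The series title asks if activation that bypasses calcium release alters later gene expression.

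Lactate dehydrogenase interconverts pyruvate and lactate while NADH and NAD+ are exchanged, and it works as a tetramer that A and B subunits build in any mixture. The A subunit prevails in skeletal muscle and in many glycolytic cells, the B subunit in heart. Mouse eggs are known for a very high activity of the enzyme that is made almost wholly of B subunits, and for living on pyruvate and lactate before later preimplantation stages take up glucose.

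The stretches before the annotated start of each gene are given because hypoxia response genes, with which Ldha is commonly grouped, are among those reported. Ldha is a textbook target of the hypoxia factor HIF1 and of MYC. Both strands were searched for ACGTG, a form of the core of the HIF element. The other form, GCGTG, was not searched for. The E-box that MYC binds contains ACGTG on either strand, so the motifs overlap, and the E-box was not searched for separately. Capitals mark the matches in the 250 bases before the start, from RefSeq in build GRCm38.p6, for Ldha on the plus strand at chr7:46845554-46845803 and for Ldhb on the minus strand at chr6:142507958-142508207.
Ldha: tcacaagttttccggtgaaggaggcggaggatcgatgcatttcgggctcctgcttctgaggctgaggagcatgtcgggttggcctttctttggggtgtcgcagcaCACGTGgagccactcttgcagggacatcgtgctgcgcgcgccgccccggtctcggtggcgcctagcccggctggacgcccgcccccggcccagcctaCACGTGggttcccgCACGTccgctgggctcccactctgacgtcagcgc
Ldhb: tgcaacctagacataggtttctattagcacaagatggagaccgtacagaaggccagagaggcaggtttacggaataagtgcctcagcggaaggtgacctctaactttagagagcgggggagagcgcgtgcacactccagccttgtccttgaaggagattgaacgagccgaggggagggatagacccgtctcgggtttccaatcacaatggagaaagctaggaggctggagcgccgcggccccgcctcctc

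The Ldha window holds 3 separate matching stretches, which begin 145, 48 and 34 bases before the start, and the Ldhb window holds none. A second annotated Ldha start, with its window at chr7:46846832-46847081, has none either. Both windows without a match hold GCGTG on a strand, which these counts leave out. Of 32851 windows of 250 bases before gene starts outside chromosome 18, 16.6% hold at least 1 match and 0.244% hold 3 or more stretches. These letters describe the genes, and no binding was measured.

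A level here is the log2 ratio of embryo to reference, so 0 means the same signal in both channels, and each difference is cycloheximide minus strontium. The deposited values do not state their direction. Because the labels put embryo RNA in Cy3 and the scanner software writes red over green, reference over embryo is the likely reading, and the signs were turned on that basis. Should the opposite hold, all signs given here would turn. Dyes were exchanged on no array and the embryo RNA had 1 more round of amplification. For a level over the reference these effects and the amount of RNA therefore cannot be told apart. Both groups share the dyes and the rounds of amplification, but equal effects on each array were not tested. As these are pooled embryos, fewer cells of a kind and less RNA per cell cannot be told apart either. Separate cultures for the arrays of a group are not stated in the labels, so each p-value reflects only the spread between these samples, and that spread may be technical.

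The array of cycloheximide replicate 3 stood apart from its group. Across probes it correlated at 0.762 and 0.810 with the other cycloheximide arrays and at 0.909 with strontium replicate 3, while cycloheximide replicates 1 and 2 correlated at 0.953. The interquartile range of log2 ratios was widest on these replicates 3, at 1.60 and 1.59, against 1.11 to 1.41 on the rest. Results are therefore also given without cycloheximide replicate 3. Of the embryo markers listed, 8 of 16 could be measured: 6, with Tdgf1 and Dppa3 in the lead, were above the reference on all 6 arrays and 0 were below on all 6. Between groups 0 of the 8 passed. Cdh1 (-0.51) and Gata3 (-0.49) were lower after cycloheximide at an unadjusted limma p under 0.05, without overlap. Of all genes, 6.64% had such a p in either direction and 11.9% did not overlap. All 3 measured stromal markers, Col1a1, Sparc and S100a6, were below the reference on all 6 arrays. Tdgf1 and S100a6 stood at the 100-fold limit of the ratio on all 6.

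The Ldha probes gave different levels. Probe 3892 was above the reference on all 6 arrays, as were 36.1% of all 21921 probes compared. Its log2 ratios were 0.83, 1.36 and 2.83 after cycloheximide and 2.15, 1.83 and 1.51 after strontium, a mean over the 6 arrays of 1.75 ± 0.69 (SD, n = 6), or 3.36-fold the reference. The cycloheximide arrays held both the lowest and the highest value, so the strontium arrays lay inside their range.

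Probe 779 lay near the reference. It read -0.65, -0.53 and -0.055 after cycloheximide and 0.19, -0.058 and 0.71 after strontium, with a mean over the 6 arrays of -0.07 ± 0.50 (SD, n = 6). All 3 cycloheximide arrays were on the reference side and 2 of the 3 strontium arrays on the embryo side. The groups overlapped, since strontium replicate 2 was just below cycloheximide replicate 3.

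The gap between the Ldha probes ran the same way on every array. Probe 3892 exceeded probe 779 by 1.48, 1.89 and 2.88 on the cycloheximide arrays and by 1.96, 1.89 and 0.80 on the strontium arrays, on average 1.82 ± 0.68 (SD, n = 6), or 3.52-fold. Whether the probes read different parts or forms of the transcript, or copies of the gene elsewhere, was not tested. The level of Ldha over the reference therefore depends on the probe.

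Ldhb was above the reference in the cycloheximide group and closer to it in the strontium group. Its probe read 1.15, 1.04 and 1.23 after cycloheximide and 0.16, -0.027 and 0.89 after strontium. The cycloheximide arrays lay close together, with an SD of 0.10 against 0.49 for strontium, and all 3 were above every strontium array. Ldhb was thus the 1 probe of 3 whose groups did not overlap, against 11.8% of all probes and 5.72% in the same direction.

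**Figure D1:**
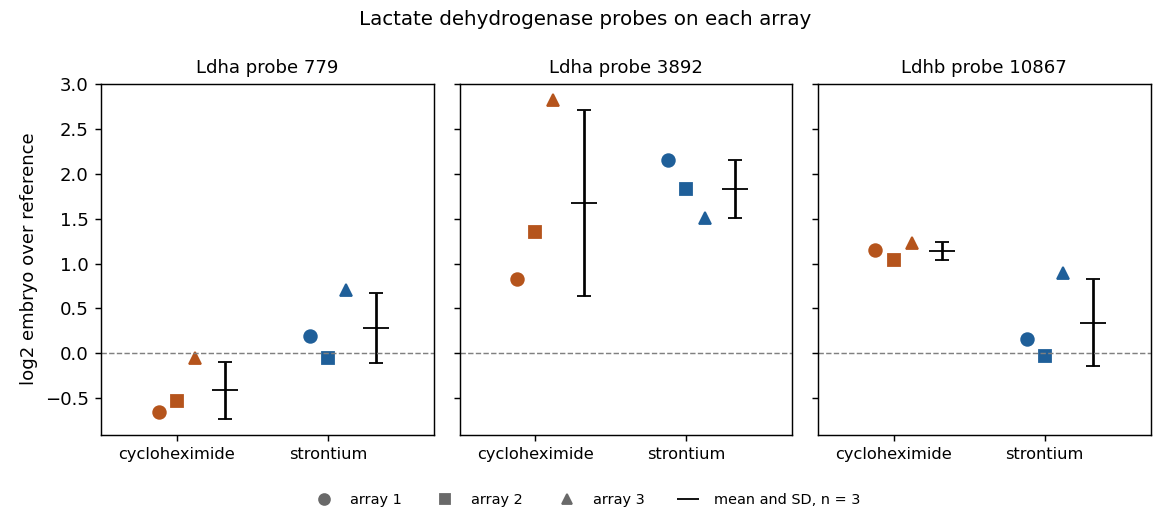
Log2 ratio of embryo over reference for each lactate dehydrogenase probe (vertical axis) on the 3 cycloheximide and 3 strontium arrays; symbols give the replicate number, black bars the mean and SD, and the dashed line the reference level. Ldha probe 3892 is above the line on all 6 arrays, probe 779 is near it, and the 3 cycloheximide values of Ldhb, from 1.04 to 1.23, lie above all strontium values.

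Between the groups, Ldhb lay higher and Ldha lower after cycloheximide, and neither passed the test. The mean ratio of Ldhb was 1.14 ± 0.10 in the cycloheximide group against 0.34 ± 0.49 in the strontium group (SD, n = 3 each), which makes a difference of 0.80 (SE 0.28), or 1.74-fold. Its 95% interval ran from 0.13 to 1.47, its unadjusted p by limma was 0.0271 and its adjusted p 0.806. Ldha probe 779 was at -0.41 ± 0.32 and 0.28 ± 0.39, a difference of -0.69 (SE 0.28), with an interval from -1.37 to -0.017, an unadjusted limma p of 0.0460 and an adjusted p of 0.823. Ldha probe 3892 was at 1.67 ± 1.04 and 1.83 ± 0.32, a difference of -0.16 (SE 0.53), whose interval from -1.45 to 1.13 covers large shifts either way (limma adjusted p = 0.957).

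Of the 3 probes, 0 passed at an adjusted p of 0.05, and 0 of 21921 probes did so in either direction (lowest limma adjusted p = 0.365). At an unadjusted p under 0.05, 1 member was higher and 1 lower, against 3.7% of all probes higher and 2.32% lower, 6.02% together. By unadjusted p, 722 other probes stood ahead of Ldhb and 1213 ahead of Ldha probe 779. Averaged over its probes, Ldha was at 0.63 ± 0.67 and 1.06 ± 0.15 (SD, n = 3 each), a difference of -0.43 (SE 0.35, limma adjusted p = 0.870 over 4742 genes).

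The Ldha values, more than the Ldhb value, moved when cycloheximide replicate 3 was left out. Without it, Ldha probe 3892 differed by -0.74 (SE 0.28), probe 779 by -0.87 (SE 0.27) and Ldhb by 0.75 (SE 0.32), with limma adjusted p of 0.252, 0.214 and 0.279. The Ldha average then differed by -0.81 (SE 0.18) against -0.43 with all arrays, with a limma adjusted p of 0.206. It moved the other way, to -0.16 and -0.32, without cycloheximide replicate 1 or 2 (limma adjusted p = 0.997 and 1). Without cycloheximide replicate 3, 4242 of all probes were at an unadjusted p under 0.05, against 1319 with it, so small p-values became common in general. Probe 3892 turned to 0.26 without cycloheximide replicate 1 and to 0.0023 without strontium replicate 1, and was at -0.0016 without cycloheximide replicate 2. Probe 779 stayed below 0 and Ldhb above 0 whichever array was left out. Ldhb reached 1.07 (SE 0.18) without strontium replicate 3, the strontium array on which it was highest, with a limma adjusted p of 0.713.

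**Figure D2:**
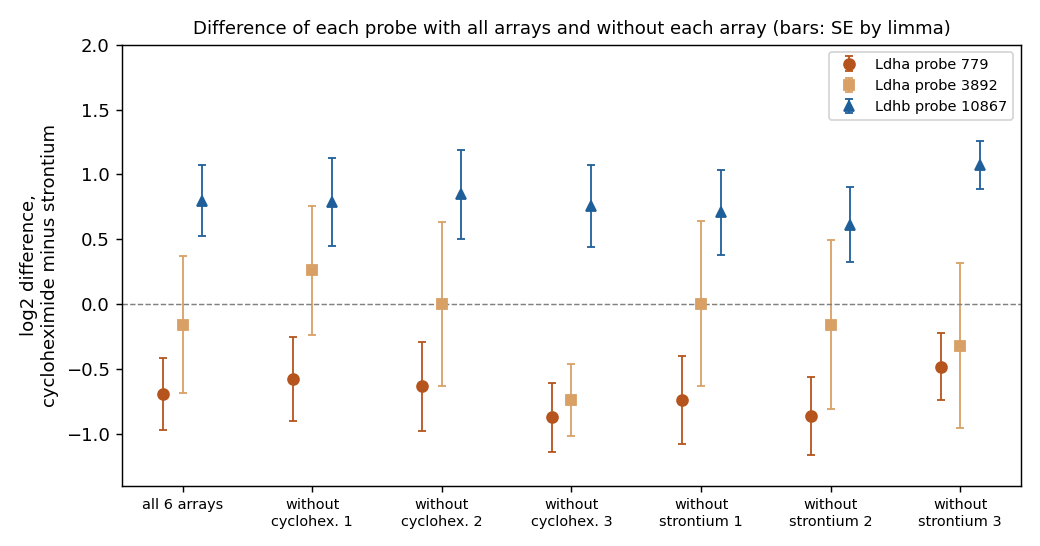
Log2 difference between cycloheximide and strontium (vertical axis) of each lactate dehydrogenase probe with all 6 arrays and after leaving out each array in turn (horizontal axis), with the SE by limma as bars. Ldhb stays between 0.61 and 1.07 and Ldha probe 779 between -0.87 and -0.48, while Ldha probe 3892 ranges from -0.74 to 0.26.

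Differences also moved with the place of a probe on the array, which was taken as 105 lines of 215 probe numbers. This line length was inferred from these same values, as the lag at which deviations from probe means correlated best. The mean correlation there was 0.080. Ldha probe 779 lies on line 4, where 22 of 209 probes were lower and 6 higher after cycloheximide at an unadjusted p under 0.05, with a median difference of -0.20. Ldha probe 3892 lies on line 19 (14 higher, 2 lower, median 0.02) and Ldhb on line 51 (8 higher, 4 lower, median -0.09). The difference of probe 779 had the sign of the median of its line. Those of probe 3892 and Ldhb had the opposite sign to their own. The local median of deviations over neighbouring lines and columns differed between groups by -0.12 at probe 779, 0.05 at probe 3892 and -0.02 at Ldhb. With that local median taken off each array, the differences were -0.58 (SE 0.33) for probe 779, -0.21 (SE 0.41) for probe 3892 and 0.81 (SE 0.28) for Ldhb. Whether the place made any of these differences was not tested.

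The balance of the subunits was taken on each array as the log2 ratio of Ldha (mean of its probes) minus that of Ldhb. It gives how far the Ldha to Ldhb proportion in embryos departs from that in the reference, and it does not compare the absolute amounts of the transcripts. It was -1.06, -0.63 and 0.16 after cycloheximide and 1.01, 0.91 and 0.21 after strontium. The strontium arrays all lay on the Ldha side of the reference, 2 of the 3 cycloheximide arrays lay on the Ldhb side, and the groups did not overlap, although cycloheximide replicate 3 came close to strontium replicate 3.

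In linear terms the proportion of Ldha to Ldhb, relative to the reference, had a geometric mean of 0.702 after cycloheximide and 1.64 after strontium, a shift of 2.34-fold. On the log2 scale the group means were -0.51 ± 0.62 and 0.71 ± 0.43 (SD, n = 3 each), a difference of -1.22 (SE 0.44). The exact two-sided permutation test over the arrays gave p = 0.1, the smallest p this test can give with 3 arrays against 3, so it could not have reached 0.05 whatever the values. Without cycloheximide replicate 3 the difference was -1.56, and over the arrays left out in turn it ranged from -1.56 to -0.95. The balance is built from the probe values above, so it adds no independent evidence to them.

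Each Ldha probe on its own gave a difference of the same sign. With probe 779 the balance was -1.80, -1.57 and -1.28 on the cycloheximide and 0.03, -0.03 and -0.19 on the strontium arrays, a difference of -1.49 (SE 0.16), or 2.81-fold. The exact permutation test gave p = 0.1, its smallest possible value, because the groups did not overlap. Here all cycloheximide arrays lay far on the Ldhb side and all strontium arrays at the reference proportion, with SDs of 0.26 and 0.11. With probe 3892 it was -0.32, 0.32 and 1.60 against 1.99, 1.86 and 0.61, a difference of -0.96 (SE 0.72), the groups overlapped, and the exact permutation p was 0.2. The spread of the balance in the cycloheximide group thus came mainly through probe 3892, which was high on replicate 3.

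Over all 6 arrays the balance against the reference was 0.10 ± 0.82 (SD, n = 6), with 4 of 6 arrays above 0. An exact two-sided sign-flip permutation test gave p = 0.719, and with 6 arrays it could have gone below 0.05. It pooled groups whose means, -0.51 after cycloheximide and 0.71 after strontium, lay on opposite sides of 0. The mean over 6 arrays therefore describes neither group. Dyes and rounds of amplification were not balanced, so a balance away from 0 could not be told apart from them. The side of the balance over 6 arrays depended on the probe: -0.81 with probe 779 (1 of 6 arrays above 0) and 1.01 with probe 3892 (5 of 6 arrays above 0), each with an exact permutation p of 0.0938. Whether embryos leaned to the A or the B subunit relative to the reference could therefore not be settled.

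**Figure D3:**
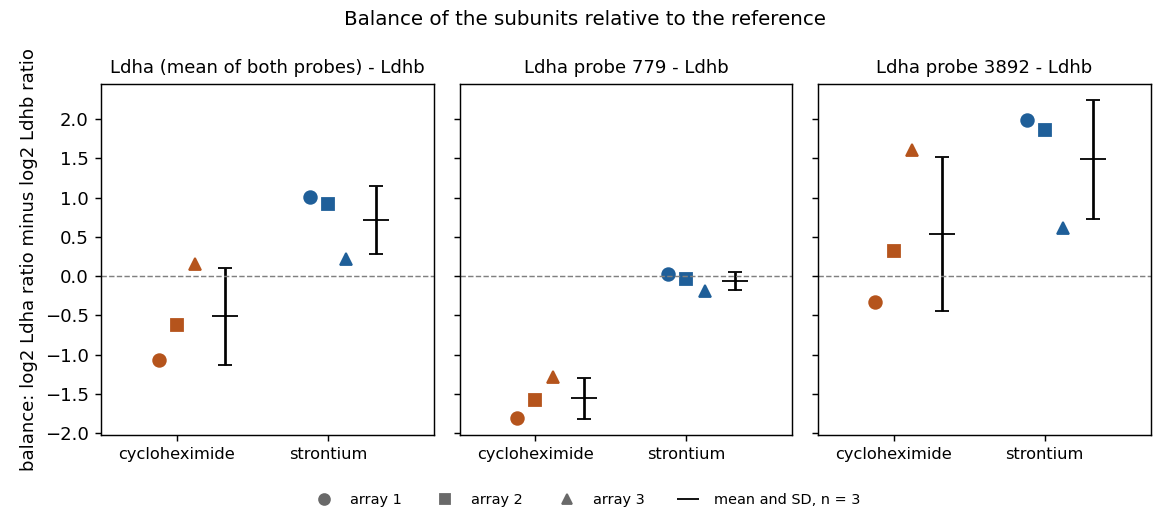
Balance of the subunits on each array, the log2 ratio of Ldha minus that of Ldhb (vertical axis), with both Ldha probes averaged and with each alone; symbols give the replicate number and black bars the mean and SD of 3 arrays. Strontium arrays lie above cycloheximide arrays in the first and second panels and overlap with them in the third; 0 is the proportion of the reference.

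The genes around lactate dehydrogenase were taken from 9 lists, of which the one of other lactate dehydrogenases (Ldhc, Ldhd and Ldhal6b) had 0 of 3 members on a probe with 1 gene. The other lists gave 31 measured genes, each averaged over its probes. Against the reference, 19 of the 31 were below it on all 6 arrays and 5 above it, where all 4742 genes gave 24.6% below and 36% above. As with Ldha, the level could depend on the probe: all 7 of the 31 genes with several probes had probe means on both sides of the reference, and 17 genes had every probe below it, and 4 every probe above it, on all 6 arrays. Between groups 0 of the 31 passed, 1 was at an unadjusted p under 0.05 (6.64% of all genes) and 3 had groups that did not overlap (11.9% of all genes). The median difference was -0.08, with 19 below 0, against -0.03 and 54.7% below 0 for all genes.

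Glycolysis, the route from glucose to pyruvate, had 7 of 21 genes measured, 4 below the reference on all 6 arrays and 2 above, with a median level of -1.21. Pfkp, a phosphofructokinase, was at -3.72 ± 0.51, Hk2, a hexokinase, at -2.82 ± 0.96 and Pkm, the pyruvate kinase that supplies the substrate of lactate dehydrogenase, at -3.44 ± 0.58 (SD, n = 6). Tpi1, triosephosphate isomerase, was at -1.21 ± 0.45. Each of these 4 enzymes was read by 1 probe, so their side could also depend on the probe. Ldha probe 3892 and Ldhb had mean ratios on the other side of the reference from these 4 enzymes, and Ldha probe 779, at -0.07, lay near it. The remaining measured genes, Gapdh at 0.09 ± 0.17, Pgk1 and Aldoc, had averages on the side of probe 3892. Pgk1, phosphoglycerate kinase, was at 1.23 ± 0.28 as the average of 3 probes with means of 0.51, 3.57 and -0.38, the last of them above the reference on 3 of 6 arrays. Aldoc, an aldolase with 1 probe, was at 0.65 ± 0.32 and above the reference on all 6 arrays.

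Between the groups 2 of the 7 glycolytic genes lay above 0 and 5 below, with a median difference of -0.15. Pkm read -2.89, -2.80 and -3.45 on the cycloheximide and -3.51, -3.55 and -4.42 on the strontium arrays, a difference of 0.78 (SE 0.32, limma adjusted p = 0.740). Its groups did not overlap, and without strontium replicate 3 its difference was 0.48. Hk2 had the lowest difference, -0.71 (SE 0.66), with overlapping groups and values from -1.41 without cycloheximide replicate 3 to -0.27 without cycloheximide replicate 1. Gapdh differed by -0.25 (SE 0.16) over 6 probes, 4 values of which were exactly 0, and this gene has many near-identical copies. Its groups did not overlap either, with every strontium average above the cycloheximide averages.

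Lactate and pyruvate cross the membrane through carriers of the Slc16 family, which need Bsg or Emb as partner proteins. Of 8 listed genes 4 were measured, 3 below the reference on all 6 arrays. The ratio of Emb was -2.33 ± 0.24 in the cycloheximide and -2.91 ± 0.07 in the strontium group (SD, n = 3 each), a difference of 0.58 (SE 0.18). Its unadjusted p of 0.0175 was the smallest of the list, with a limma adjusted p of 0.717. Its arrays did not overlap between groups. Bsg was at -2.29 ± 0.37 and -2.05 ± 0.35, a difference of -0.24 (SE 0.27), opposite in sign to its relative Emb. Slc16a3, the exporter of lactate from glycolytic cells, was at -1.63 ± 0.59 over the 6 arrays with a difference of -0.14, and Slc16a8 at 0.79 ± 0.15 with a difference of -0.18.

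Pyruvate that is not reduced to lactate enters mitochondria through the pyruvate dehydrogenase complex. Only 2 of 13 listed genes could be measured. Pdhb, the beta subunit, had a probe at -3.27 and another at 0.67, the first below and the second above the reference on all 6 arrays, so its average of -1.30 ± 0.33 (SD, n = 6) places it on no side. Its difference was -0.02 (SE 0.28). Pdha2, an alpha subunit known from testis, had probes at 1.45 and -0.83 and differed by -0.40 (SE 0.34). It had 1 value at exactly 0, and the difference was -0.75 with that value taken as missing and -0.11 without strontium replicate 3.

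In the citric acid cycle 5 of 16 genes were measured, with a median difference of -0.05. Sdha, of succinate dehydrogenase, was the lowest at -0.89 (SE 0.72), with -1.50 without cycloheximide replicate 3 and -0.34 without cycloheximide replicate 2, and Ogdh, of the oxoglutarate dehydrogenase, the highest at 0.18 (SE 0.24). The shuttles that carry the electrons of NADH into mitochondria compete with lactate dehydrogenase for NADH, and 4 of 9 genes were measured with a median of 0.04. Slc25a12, the aspartate and glutamate carrier, differed by 0.34 (SE 0.26) and Mdh1, the cytosolic malate dehydrogenase, by -0.49 (SE 0.56), which became -1.10 without cycloheximide replicate 3 and -0.11 without cycloheximide replicate 1. Gpd2, the mitochondrial glycerol phosphate dehydrogenase, had the highest level of the 31 genes at 2.67 ± 0.37 (SD, n = 6), and was named after its value was seen.

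Glucose carriers lay on the reference side. Slc2a1 was at -6.27 ± 0.25 (SD, n = 6), with 1 strontium array at the lower limit of the ratio, so the true mean may be lower and its difference, 0.04 (SE 0.23) as measured, is a lower bound. Slc2a3 was at -0.74 ± 0.27 with a difference of 0.27 (SE 0.22). Of 7 genes of the pentose phosphate route 3 were measured. Rpia, ribose phosphate isomerase, differed by 1.23 (SE 0.88), with 1 strontium array at -4.64 against -2.11 and -1.28 on the others and a difference of 0.25 without that array, and Tkt, transketolase, by -0.17 (SE 0.19).

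Averaged over probes, all 4 measured of 18 hypoxia response genes were below the reference on all 6 arrays, with a median level of -2.19 and a median difference of 0.0024. Egln1, an oxygen sensor that marks HIF for breakdown, had a probe at 0.73, above the reference on all 6 arrays, and another at -1.78, below it on all 6, and is named here after its values were seen. Vegfa, a growth factor for vessels, differed by 0.33 (SE 0.42) and Bnip3l, a mitophagy receptor, by -0.17 (SE 0.18). Both Ldha probes had mean ratios above this median level, but so did most genes. Bsg, just above it at -2.17, exceeded only 6.37% of all genes. Among all probes, Ldha probe 779 exceeded 38.6% and probe 3892 exceeded 93.8%.

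**Figure D4:**
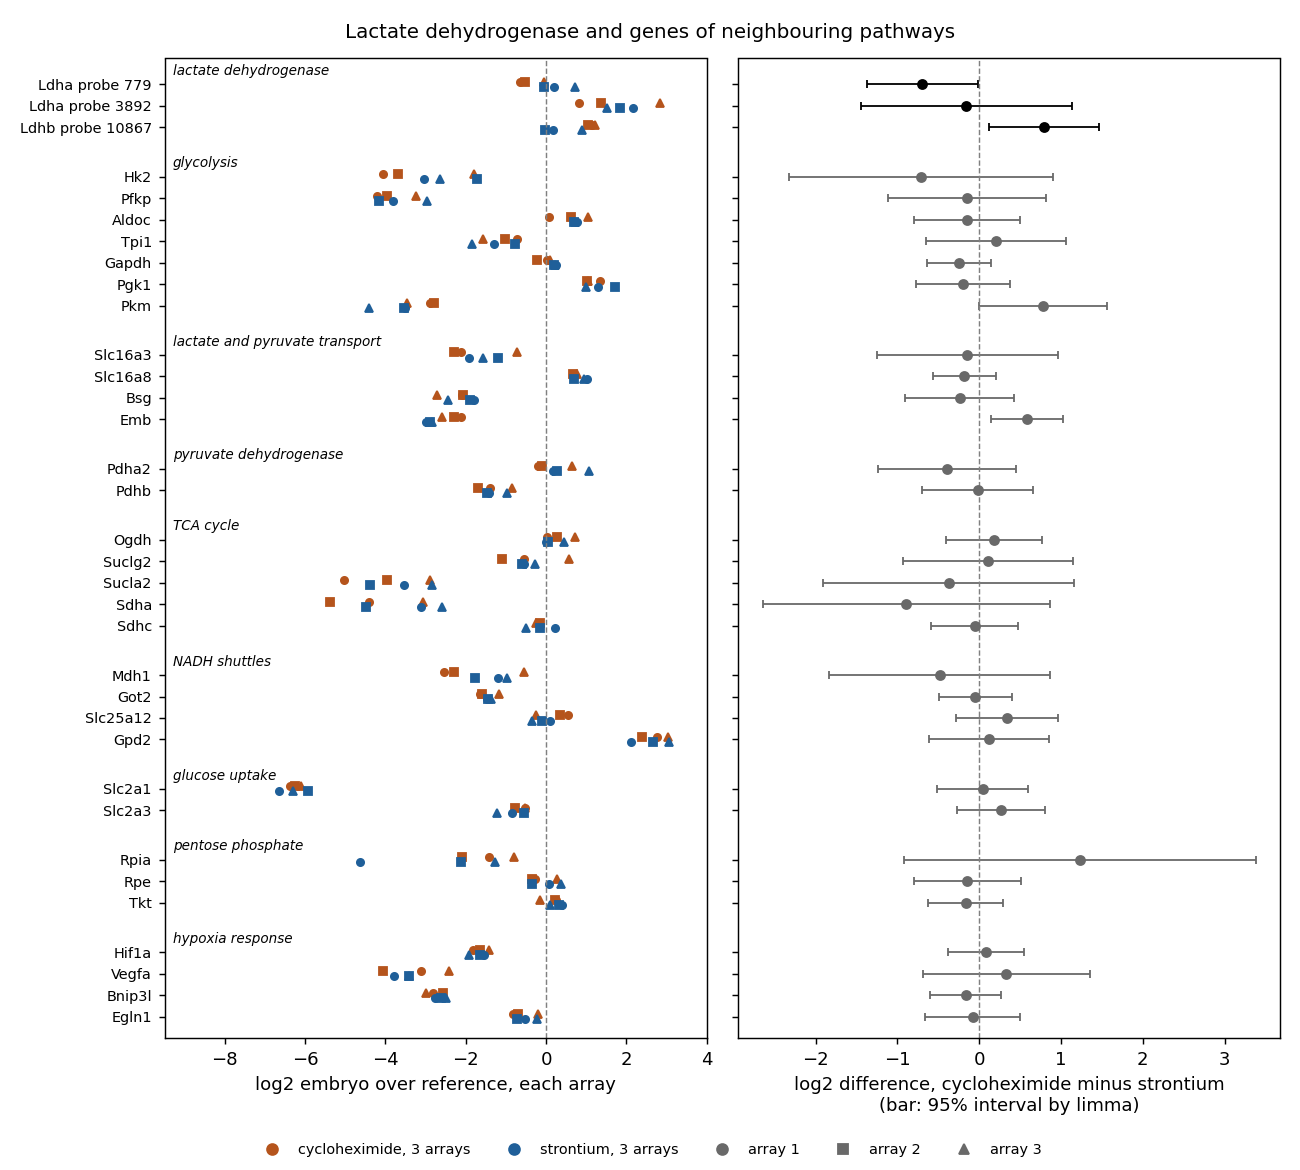
Left, log2 ratio of embryo over reference of the lactate dehydrogenase probes and of 31 genes of neighbouring pathways on each array (symbols give the replicate number); right, the log2 difference, cycloheximide minus strontium, with its 95% interval by limma. Averaged over their probes, most pathway genes lie left of the reference line, 19 of them on all 6 arrays. Among the differences Ldhb, Pkm and Emb are the points above 0 whose groups do not overlap, and Gapdh is such a point below 0. Of all genes 11.9% and of all probes 11.8% have groups that do not overlap, in either direction.

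Profiles were also compared as the root mean square distance between log2 values over the 6 arrays, each gene centred on its own mean, among 4482 other genes with no value at 0 or at the limit. This is a description of 6 arrays that share their structure, and closeness does not show a shared function. Nearest to Ldha (mean of its probes) were Rab11fip1 at 0.058, Epsti1 at 0.064, Lpp at 0.073 and Nfia at 0.075, where the median gene was at 0.521. These genes were lowest on cycloheximide replicate 1 and highest on cycloheximide replicate 3, as the average of the Ldha probes was. Probe 3892 shared both extremes, at 0.83 and 2.83. Probe 779 was also lowest on cycloheximide replicate 1. It was highest on strontium replicate 3, at 0.71, against -0.055 on cycloheximide replicate 3. The pattern at the high end was therefore not one that both Ldha probes shared. Nearest to Ldhb were Mapk14, a stress kinase, at 0.135, the chromatin genes Baz2a at 0.145 and Bptf at 0.154, and Aspm, a spindle protein, at 0.161, against a median of 0.590. Ldha and Ldhb were 0.752 apart, farther than either was from its median gene, and the Ldha probes were 0.621 apart from each other.

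Markers of other cells that the embryo RNA could hold were few. Of 10 cumulus and granulosa genes 2 were measured, with the median level of their ratios between 0.0016 and 0.47 on the cycloheximide arrays and between -0.60 and 0.13 on the strontium arrays. Cyp11a1 had 4 of its values at exactly 0. Of 8 genes of skeletal and heart muscle, tissues rich in the enzyme, 4 were measured, with medians from -0.19 to 0.20 and from -0.20 to -0.07. Of 6 blood genes 4 were measured, with medians from -0.08 to 0.34 and from -0.02 to 0.48, and of 8 stromal genes 3, with medians from -6.64 to -5.79 and from -5.94 to -5.62. By limma 0 of these genes passed the test between groups, and the part of these cells in the levels of Ldha and Ldhb was not tested.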

How the data were processed

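The authors deposited a table of log10 ratios between the 2 channels, with a column for each array and a row for each of 22132 probes. The submitters' processing notes name Agilent Feature Extraction; how background and dyes were treated is not given in the sources used here. Ratios in the deposited log10 table end at -2 and 2, a 100-fold limit, and exact zeros were read as ratios not set; no member had either. With the sign turned and a factor of 3.32, values became log2 of embryo to reference. Omitting 211 probes that were 0 throughout gave 21921 probes, with 4742 genes on probes of 1 symbol. Symbols came from the platform annotation, with 6179 of 6249 gene IDs matched to RefSeq (GRCm38.p6).

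Differences were fitted on all probes with limma 3.58.1 (lmFit, eBayes; R 4.3.3), with Benjamini-Hochberg adjustment and a threshold of 0.05. Balances were tested with exact permutations (SciPy 1.17.1). Python 3.11.15, pandas 2.3.3, NumPy 2.4.6 and matplotlib 3.10.9 served for tables and plots. Tested on simulated data with the spread of these 21921 probes, the fit recovered 1% of log2 changes of 1 and 36% of log2 changes of 2 at the adjusted threshold; with 0.25 times that spread it recovered 89% and 100%. Replicate numbers recur in both groups without a stated meaning, so they were not used as pairs in the main fit. Deviations from the group means correlated at 0.056, 0.379 and 0.501 between arrays of the same number. They also correlated at 0.457 between cycloheximide replicate 1 and strontium replicate 2. Whether arrays of the same number share a batch was not tested. Named were all members, and of each list the gene with the smallest p and those with the highest and lowest difference; every gene of glycolysis, transport and pyruvate dehydrogenase could be named. Nearest profiles were the 4 smallest distances. Members and lists were chosen with earlier results of these data known. Alternatives were other scalings, treatment of zeros, corrections for the place on the array, a replicate block, other probe summaries and leaving out each array. Signal over background was not analysed here, and both the number of arrays and their spread limit the precision.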

Additional observations from a re-analysis of the deposited data

How the results depend on the processing

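Under every alternative run, 0 probes passed between the groups by limma, with 748 to 2086 probes at an unadjusted p under 0.05 except 4242 without cycloheximide replicate 3. The differences of Ldhb, of Ldha probe 779 and of the Ldha average, and the balance between groups, kept their sign under each alternative. Ldha probe 3892 ranged from -0.74 to 0.26 over the arrays left out. The balance over the reference ranged from -0.081 to 0.33 over the arrays left out, was below 0 without strontium replicate 1 or 2 (-0.081 and -0.061), and was -0.81 with probe 779 alone; the cause was not tested. With the replicate block, Ldhb differed by 0.80 (SE 0.22, limma adjusted p = 0.519), Ldha probe 779 by -0.69 (SE 0.16, limma adjusted p = 0.519), and the balance by -1.22 (exact sign-flip permutation p = 0.25, the smallest that 3 pairs allow). The numbers share no stated batch, and 2086 probes were at an unadjusted p under 0.05 with this block. Quantile normalization gave 0.93 for Ldhb, -0.04 for Ldha probe 3892 and a balance difference of -1.29 with an exact permutation p of 0.2.

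Among 23 genes of the pathways, 300 of 322 alternative values kept their sign and 22 did not. Pdhb turned to 0.0046 with arrays centred on their medians, 0.018 with quantile normalization and 0.015 with the running median over probe numbers. Slc2a1 turned to -0.069 with quantile normalization and -0.029 with the running median, and Tkt to 0.050 with the latter. With the local median over lines and columns, a correction added after seeing the data, Aldoc turned to 0.080 and Slc16a3 to 0.018. Over the arrays left out, 22 of the 23 genes changed sign or moved by over 1.5 times, with Emb (0.48 to 0.71) the exception. The ranges that crossed 0 were -0.39 to 0.10 for Aldoc, -0.012 to 0.33 for Ogdh, -0.25 to 0.17 for Pdhb, -0.43 to 0.19 for Pfkp, -0.64 to 0.15 for Slc16a3, -0.13 to 0.23 for Slc2a1, -0.070 to 0.48 for Tpi1 and -0.058 to 0.76 for Vegfa.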
